A study of Homo sapiens with 4 samples.

Results

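Chromosome 18 is among the human autosomes poorest in genes and chromosome 19 is the richest, and they were compared here for the binding of RAD21. The peaks were those of the RAD21 ChIP-seq peak list of wild-type HCT116 cells whose sequence name was chromosome 18 or chromosome 19. Chromosome 18 held 1203 peaks, or 2.12% of the 56853 listed, and chromosome 19 held 2099, or 3.69%, which made 3302 together. The rule that picks these chromosomes uses no measured value, although they were chosen with earlier results of these data known. They are not of like length, since chromosome 18 spans 80.4 Mb and chromosome 19 spans 58.6 Mb, and densities are therefore given per Mb outside assembly gaps (80.1 and 58.4 Mb). Chromosome 18 carried 266 protein-coding genes of the GENCODE 44 annotation and chromosome 19 carried 1476.

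The cells were HCT116, an established line from a human colorectal carcinoma, here of genotype WT and untreated, and chromatin was precipitated with the RAD21 antibody ab992. The study made 4 libraries without replicates. The others came from HCT116_RAD21_AID, a single clone with the mAID degron integrated into the RAD21 gene and OsTIR1 ubiquitin ligase expression, and they were a RAD21 ChIP of untreated cells and a ChIP and an Input of cells kept with the auxins alpha-naphthaleneacetic acid and indole-3-acetic acid, each at 500 μM, for 6 h. These 3 libraries were not analysed here. With 1 library there is no spread between replicates, so that no test was made, and the 95% intervals below cover counting error only.

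RAD21 is the subunit that closes the ring of cohesin, a complex that holds sister chromatids together and extrudes chromatin loops. Extruding cohesin halts at CTCF, a zinc finger protein that binds a long sequence motif, and many cohesin peaks therefore lie on CTCF sites. Cohesin is also found at active promoters and enhancers. Chromosome 19 is known as the most gene-dense human chromosome, rich in GC and in zinc finger gene clusters, and lies in the nuclear interior, whereas the gene-poor chromosome 18 tends to lie at the nuclear periphery.

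The highest peaks of each chromosome are shown with the bases up to 50 bp to either side of their summits (GRCh38, plus strand, 5′ to 3′), because they carry the strongest cohesin signal of the pair and differ in whether the CTCF motif is present. Capitals mark the best match to the CTCF core consensus of 12 letters, looked for on the plus and minus strands of this window. All 4 marked matches had 1 mismatch to the consensus, and the windows without capitals held no match with up to 1 mismatch.
Chromosome 18 highest, chr18:47749260-47749360: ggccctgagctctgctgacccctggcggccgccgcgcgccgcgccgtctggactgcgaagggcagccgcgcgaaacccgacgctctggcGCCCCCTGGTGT
Chromosome 18 next, chr18:51110479-51110579: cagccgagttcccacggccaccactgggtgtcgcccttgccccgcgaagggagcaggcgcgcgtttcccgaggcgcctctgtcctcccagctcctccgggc
Chromosome 18 after that, chr18:79644191-79644291: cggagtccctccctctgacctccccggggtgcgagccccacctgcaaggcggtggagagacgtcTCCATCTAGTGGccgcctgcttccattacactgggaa
Chromosome 19 highest, chr19:33778158-33778258: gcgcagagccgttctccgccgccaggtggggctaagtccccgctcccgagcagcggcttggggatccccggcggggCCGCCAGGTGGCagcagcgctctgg
Chromosome 19 next, chr19:32224726-32224826: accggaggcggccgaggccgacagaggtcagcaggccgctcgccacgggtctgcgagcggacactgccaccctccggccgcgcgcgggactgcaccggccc
Chromosome 19 after that, chr19:12977982-12978082: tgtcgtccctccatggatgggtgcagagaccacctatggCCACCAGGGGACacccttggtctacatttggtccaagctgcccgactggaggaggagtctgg

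The highest peak of chromosome 18 lay between genes, from 47748824 to 47749754, and the nearest protein-coding gene was SMAD2, a transducer of TGF-β signals, whose closer end, the 3′ end, was 59647 bp away. Its fold enrichment, the ratio of ChIP fragments to the local background with 1 added to each, was 115.5, from 796 fragments at the summit. The next peak, with a fold enrichment of 78.1, lay 25484 bp beyond the 3′ end of SMAD4, the partner of SMAD2 in the same pathway. The third, at 71.4, lay in an intron of the long non-coding gene CTDP1-DT. On chromosome 19 the highest peak reached 154.2 from 1063 fragments, 4699 bp from the nearer end of the sulfotransferase gene CHST8. It was followed by peaks of 78.8 and 72.0, whose nearest protein-coding genes were ZNF507 (120818 bp to its nearer end) and DAND5 (3272 bp). Of these 6 peaks, 5 lay between genes and none had its summit at a promoter.

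RAD21 peaks were denser on chromosome 19. It held 35.9 peaks per Mb (95% exact Poisson interval, 34.4 to 37.5), and chromosome 18 held 15.0 (14.2 to 15.9). The ratio was 2.39 (2.23 to 2.57). Among the 22 autosomes, chromosome 19 ranked 2 after chromosome 17 with 36.7 peaks per Mb, and chromosome 18 ranked 21, above chromosome 4 with 14.0. The median autosome had 19.9. The peaks thus followed the gene content in direction but not in size, because chromosome 19 held 7.60 times as many protein-coding genes per Mb (25.3 against 3.32).

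Per protein-coding gene the order turned round. Chromosome 18 had 4.52 peaks per gene (4.27 to 4.79), which ranked 2 among the autosomes after chromosome 13 with 4.65. Chromosome 19 had 1.42 (1.36 to 1.48), the lowest value of the 22, where the median was 3.04. Per distinct transcription start the gap was smaller, with 0.287 peaks on chromosome 18 and 0.167 on chromosome 19.

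Over the 22 autosomes, peaks per Mb rose with protein-coding genes per Mb (Pearson r = 0.86, Spearman rho = 0.87) and with GC content (r = 0.96, rho = 0.96). Without chromosomes 18 and 19 the values over the other 20 autosomes were r = 0.91 and rho = 0.83 for genes, and r = 0.95 and rho = 0.97 for GC content. All points come from 1 library, so that these values are descriptions. A bias of the library by GC content was not tested. The GC content was 39.8% on chromosome 18 and 47.9% on chromosome 19, the highest of the autosomes.

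Neighbouring summits lay closer together on chromosome 19. The median distance was 14.2 kb (quartiles, 5.46 and 33.9 kb), against 34.7 kb (12.5 and 79.7 kb) on chromosome 18. Distances over 100 kb made up 17.4% of those on chromosome 18 (15.3% to 19.6%) and 4.00% on chromosome 19 (3.25% to 4.93%). Distances under 5 kb made up 12.1% and 23.4%.

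The longest stretches without a summit held different kinds of genes. On chromosome 18 the longest ran from 55522171 to 56563809, over 1042 kb, and began within TCF4, a basic helix-loop-helix transcription factor gene. Stretches of 853 kb with no protein-coding gene and of 841 kb overlapping DLGAP1, a postsynaptic scaffold gene, followed. On chromosome 19 the longest stretches, of 2413 and 734 kb, touched the centromere model, the part of the assembly that stands in for the centromeric satellite. Outside it, the longest measured 603 kb, from 21890242 to 22493296, and overlapped the zinc finger genes ZNF208, ZNF257, ZNF676, ZNF729 and ZNF98.

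The medians of enrichment lay close together. The median fold enrichment was 5.46 (quartiles, 3.48 and 10.7) on chromosome 18 and 5.64 (3.40 and 12.0) on chromosome 19. The medians of fragments at the summit were 46 and 47, and the median local background was 1.12 times its floor on both, where the floor of 5.90 fragments is the genome-wide mean. The copy number of the chromosomes in these cells was not tested. The difference appeared among strong peaks. On chromosome 18, 8.81% of the peaks (7.34% to 10.5%) reached a fold enrichment of 20, and 12.2% did on chromosome 19 (10.9% to 13.7%).

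The density ratio was highest among the strongest peaks. For peaks below a fold enrichment of 5 it was 2.42 (2.17 to 2.69), and for those of at least 5 it was 2.37 (2.15 to 2.61). For those of at least 10 it was 2.69 (2.35 to 3.09), and for those of at least 20 it was 3.32 (2.64 to 4.21). The intervals below 5 and at 20 or more overlapped. The peaks below 5 included 58 in the centromere model of chromosome 18 and 1 in that of chromosome 19. At 50 or more, 8 peaks of chromosome 18 and 25 of chromosome 19 gave a ratio of 4.28, with a wide interval of 1.87 to 10.98.

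Peaks were also wider on chromosome 19, except at promoters. The median width was 492 bp, the highest of the 22 autosomes, and on chromosome 18 it was 434 bp, which ranked 20. At promoters the medians were 475 bp on chromosome 19 and 491 bp on chromosome 18. In exons, introns and between genes the median was larger on chromosome 19. Widths of 1000 bp or more occurred in 5.72% of the peaks of chromosome 19 (4.80% to 6.79%) and in 2.74% of chromosome 18 (1.96% to 3.83%). The widest peak of chromosome 19 covered 5570 bp from 36303466 to 36309035, with a fold enrichment of 5.76. Its summit was classed as promoter and lay within the long non-coding genes LINC00665 and ENSG00000267053.

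The widest peak of chromosome 18 covered 2431 bp, 12511 bp from SALL3, a zinc finger gene of the spalt family. Its fold enrichment was 3.37 over a background of 5.46 floors. The peak was a tandem repeat, in which the sequence matched itself at a shift of 53 bp in 89.0% of the bases, and the repeat can be read in the bases around the summit. No match to the CTCF consensus with up to 1 mismatch was found in the whole peak.
Widest peak of chromosome 18, chr18:79015138-79015238: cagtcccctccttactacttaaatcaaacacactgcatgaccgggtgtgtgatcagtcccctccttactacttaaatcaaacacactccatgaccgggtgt

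Promoters took a larger share of the peaks of chromosome 19. A summit within 1 kb of a transcription start was found for 36.3% of its peaks (762 of 2099, 95% Wilson interval 34.3% to 38.4%) and for 18.2% on chromosome 18 (219 of 1203, 16.1% to 20.5%). These shares were the highest of the autosomes for chromosome 19 and ranked 21 for chromosome 18. Promoters also covered more of chromosome 19, with 17.9% of its bases against 5.50%. The share of peaks over the share of bases was therefore larger on chromosome 18, at 3.31, than on chromosome 19, at 2.03.

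Within each class of sequence, chromosome 19 remained the denser. At promoters it had 72.9 peaks per Mb of promoter and chromosome 18 had 49.8, a ratio of 1.47 (1.26 to 1.71). The ratio was 1.81 (1.27 to 2.62) in exons and 2.02 (1.79 to 2.29) in introns. It was highest between genes, with 30.5 peaks per Mb against 13.3 and a ratio of 2.28 (2.02 to 2.59). Outside promoters as a whole the values were 27.9 and 13.0, with a ratio of 2.14 (1.97 to 2.33). With the class densities of chromosome 18, the promoters, exons, introns and intergenic sequence of chromosome 19 would have held 1160 peaks, 55.3% of those listed.

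Promoter peaks were weak on both chromosomes. Their median fold enrichment was 4.35 on chromosome 18 and 3.99 on chromosome 19. Between genes it was 5.60 and 7.50. Among peaks below a fold enrichment of 5, 23.7% on chromosome 18 and 47.4% on chromosome 19 had their summit at a promoter, and among those of at least 20 the shares were 14.2% and 24.5%. The nearest transcription start lay at a median of 10346 bp from the summit on chromosome 18 and of 2364 bp on chromosome 19.

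The share of peaks with the CTCF motif was close on the chromosomes. The exact core consensus lay within 50 bp of the summit in 13.1% of the peaks of chromosome 18 (11.3% to 15.1%) and in 13.2% on chromosome 19 (11.9% to 14.8%). With up to 1 mismatch the shares were 39.6% (36.8% to 42.4%) and 40.2% (38.1% to 42.3%). Windows of the same size 5 kb to either side of the summits held the exact consensus in 0 of 2406 cases on chromosome 18 (upper limit 0.159%) and in 5 of 4198 on chromosome 19. The shares of exact matches ranked 3 and 2 among the autosomes, whose values ran from 9.44% to 13.3%.

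Chromosome 19 also held more exact matches to the motif per Mb. The exact consensus occurred 3.13 times per Mb on chromosome 18 and 7.79 times on chromosome 19, a ratio of 2.48 (2.12 to 2.91) that lay near that of the peaks. Of the exact matches, 70.9% (178 of 251, 65.0% to 76.2%) lay in a peak on chromosome 18 and 69.9% (318 of 455, 65.5% to 73.9%) on chromosome 19. Exact matches between genes were in a peak in 76.0% and 80.8% of cases, and exact matches at promoters in 57.1% (12 of 21) and 67.4% (64 of 95). For matches with up to 1 mismatch the share in a peak was larger on chromosome 19. Outside the centromere models it was 15.8% on chromosome 18 (573 of 3623) and 21.7% on chromosome 19 (1135 of 5223). The intervals of these shares did not overlap.

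Peaks with the motif were the stronger ones on both chromosomes. The median fold enrichment was 10.8 with the exact consensus and 4.93 without it on chromosome 18, and 11.9 and 4.85 on chromosome 19. The share with up to 1 mismatch was 19.2% below a fold enrichment of 5 and 62.3% at 20 or more on chromosome 18, and 15.8% and 67.3% on chromosome 19. At promoters the exact consensus was found in 5.94% and 6.69% of the peaks, against 15.4% and 17.3% between genes.

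**Figure D1:**
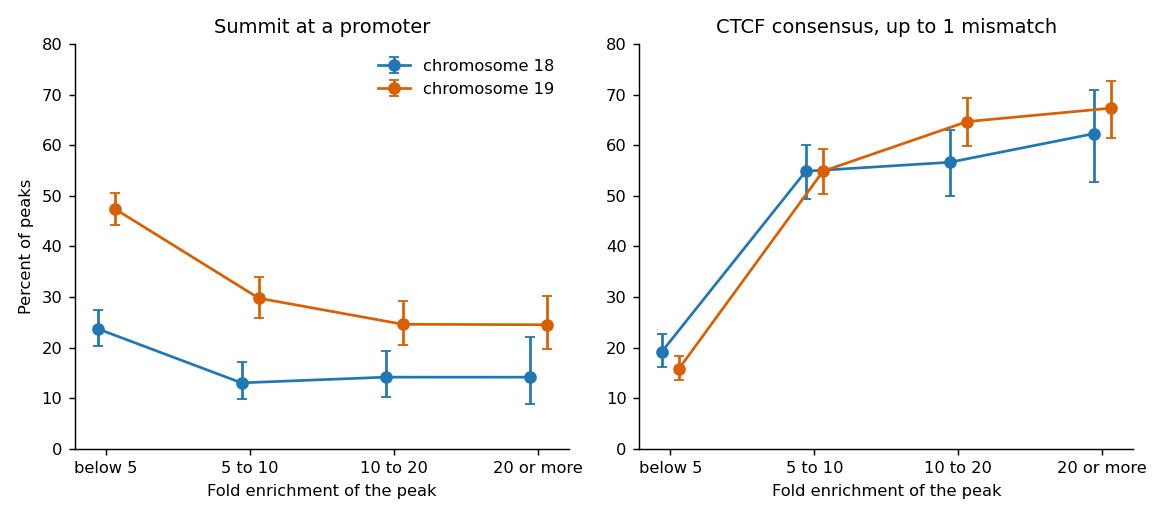
Points give, for peaks in 4 classes of fold enrichment (x axes), the percentage with a summit at a promoter (left) and with the CTCF consensus with up to 1 mismatch (right), with 95% Wilson intervals (counting error only). The promoter shares are higher on chromosome 19 in each class, from 23.7% and 47.4% in the lowest to 14.2% and 24.5% in the highest. In the highest class the intervals overlap. The motif shares climb on both chromosomes, to 62.3% and 67.3%.

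In 1 Mb windows outside the centromere models, chromosome 18 had from 1 to 46 peaks per Mb with a median of 15 (74 windows), and chromosome 19 had from 7 to 68 with a median of 39.5 (56 windows). The ranges overlapped, and the medians lay apart. On chromosome 18, 1 window lay above the median of chromosome 19, and 6 windows of chromosome 19 lay below the median of chromosome 18. Across windows, peaks per Mb correlated with GC content with r = 0.87 on chromosome 18 and r = 0.89 on chromosome 19, and with the number of protein-coding gene starts with r = 0.69 and r = 0.63. The windows of a chromosome share 1 library and are not independent.

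The window richest in peaks on chromosome 18 spanned 48 to 49 Mb and held 46 peaks but starts of 3 protein-coding genes, ZBTB7C, CTIF and SMAD7, the inhibitor of TGF-β signalling. Its GC content was 48.1%. The poorest, from 71 to 72 Mb, held 1 peak, no protein-coding gene start and 35.4% GC. On chromosome 19 the richest window spanned 1 to 2 Mb, with 68 peaks, 39 gene starts, among them those of STK11 and GPX4, and 59.1% GC. The poorest windows had 7 peaks each. These were 20 to 21 Mb and 22 to 23 Mb, where the starts were those of zinc finger genes such as ZNF682, ZNF90, ZNF208 and ZNF257, and 31 to 32 Mb with TSHZ3, a teashirt family zinc finger gene.

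At like gene density neither chromosome was the denser in every class in which both had windows. Of the 56 windows of 1 Mb on chromosome 19, 34 had 21 to 40 gene starts and 6 had more. Chromosome 18 had no window in these classes, so that most of chromosome 19 could not be compared with it in this way. Windows with 0 to 2 gene starts had 8.64 peaks per Mb on chromosome 18 (39 windows), 12.4 on chromosome 19 (4 windows) and 10.9 on the other autosomes. Windows with 6 to 10 gene starts had 24.6 (16 windows), 20.4 (7 windows) and 23.8, and those with 11 to 20 had 25.7 (3 windows), 32.2 (5 windows) and 31.1. Gene starts were counted per window. The same count in a 500 kb window thus stands for a higher gene density than in a 1 Mb window. In windows of 500 kb, those with 3 to 5 gene starts had 25.8 peaks per Mb on chromosome 18 (35 windows) and 17.3 on chromosome 19 (8 windows). Those with 6 to 10 gene starts had 19.2 (5 windows, 14.2 to 25.5) and 36.5 (23 windows, 33.1 to 40.2). With the densities that the other autosomes showed in each gene class, the windows of chromosome 18 would have held 1186 peaks and those of chromosome 19 2003. The listed numbers, 1137 and 2096, were 95.9% and 105% of these. The densities of the other autosomes included their centromere models, which were left out for chromosomes 18 and 19.

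With classes of GC content in place of gene starts, the computed numbers were 1267 and 2248, of which the listed peaks made up 89.7% and 93.2%. Here too the centromere models were left out for chromosomes 18 and 19 only. Where the chromosomes shared a GC class, the values were 11.5 (13 windows) and 11.6 (1 window) at 38 to 40% for chromosomes 18 and 19, and chromosome 19 was the lower at 40 to 42% GC (10.8 peaks per Mb in 4 windows, against 21.2 in 13 windows) and at 42 to 44% (17.7 in 3 windows, against 24.4 in 16). The values were 22.7 and 26.7 at 44 to 46%, and 40 and 41.6 at 48 to 50%, for chromosomes 18 and 19. The numbers computed from the class densities of the other autosomes were added after the data had been seen.

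A larger share of the protein-coding genes of the gene-poor chromosome had a peak at 1 or more of their starts, although peaks per Mb of promoter were fewer there. A summit within 1 kb of any of their starts was found for 129 of the 266 protein-coding genes of chromosome 18, or 48.5% (42.6% to 54.5%), and for 583 of the 1476 of chromosome 19, or 39.5% (37.0% to 42.0%). Genes of chromosome 18 were longer, with a median length of 54.0 kb against 15.9 kb. Below 10 kb of gene length the shares were 30.4% (23 genes) and 31.8% (469 genes), from 10 to 50 kb 37.0% and 42.5%, and from 50 to 200 kb 58.0% and 44.5%. Below 50 kb the order was thus the reverse of that over all genes, with overlapping intervals. With peaks of a fold enrichment of at least 10 only, 7.52% and 7.99% of all genes had a promoter summit. The genes of at least 200 kb numbered 43 on chromosome 18, of which 62.8% had a promoter summit, and 5 on chromosome 19, all of which had one.

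Gene bodies of chromosome 19 were the denser ones per base. They held 3.72 summits per 100 kb of gene, against 1.71 on chromosome 18, although a summit in the body was found for 51.2% of its genes (48.6% to 53.7%) against 63.2% (57.2% to 68.7%). Promoters of long non-coding genes were marked less often than those of protein-coding genes, with 13.3% of 543 genes on chromosome 18 and 19.3% of 748 on chromosome 19.

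Of 20 genes listed for chromosome 18, 14 had a promoter summit (70%, 48.1% to 85.5%, against 48.5% of all its protein-coding genes). Of 20 listed for chromosome 19, 12 had one (60%, 38.7% to 78.1%, against 39.5%). Both intervals include the share over all genes. The listed genes were also longer, with median lengths of 152.1 and 19.3 kb, against 54.0 and 15.9 kb over all genes of chromosomes 18 and 19. The highest promoter peak among those of chromosome 18 was that of PHLPP1, a phosphatase that acts on AKT, with a fold enrichment of 13.5 from 112 fragments. TCF4 and NFATC1, a calcineurin-regulated transcription factor gene, had 6 summits each in the gene, the most among the 20 listed for chromosome 18. STK11, the kinase LKB1, had 6 within 50.9 kb, the most among those listed for chromosome 19.

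Over all protein-coding genes, 82 of 266 on chromosome 18 and 635 of 1476 on chromosome 19 had no summit at a promoter or in the body. Of the listed genes of chromosome 18 this held for SETBP1 alone, a gene of 388.3 kb whose starts lay at least 100960 bp from a summit. Among the 20 listed for chromosome 19 there were 7 such genes, namely the maintenance methyltransferase gene DNMT1, the cyclin gene CCNE1, the carcinoembryonic antigen gene CEACAM5, the apolipoprotein gene APOE, the TFIIH helicase gene ERCC2, the apoptosis gene BAX and the corepressor gene TRIM28. CEACAM5, APOE and TRIM28 had a summit within 2 kb of a start, whereas the nearest to CCNE1 was 25607 bp away.

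Gene families differed widely within chromosome 19. Its 254 zinc finger genes, taken by symbol, which includes a few such as ZFP36 whose product binds RNA, had a promoter summit in 41.3% of cases and the other genes in 39.1%. Their bodies held 1.94 summits per 100 kb against 4.23 in the others. The largest zinc finger cluster by length, from 19668796 to 24129968 with 37 members, held 51 peaks or 11.4 per Mb (8.51 to 15.0). Other zinc finger spans held from 21.4 to 39.5 peaks per Mb. They also held other genes, and the span with 39.5 had 4 members among 22 protein-coding gene starts.

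The spans of the other families of chromosome 19 lay on both sides of its mean of 35.9 peaks per Mb. A span ran from the first to the last member, so that it could hold other genes and overlap another span. The longer span of olfactory receptor genes had 11 members among 30 protein-coding gene starts and contained the CYP4F span. The shorter one lay within a zinc finger span. The longer CEACAM span had 8 members among 35 starts. The 10 PSG genes, which encode pregnancy-specific glycoproteins, spanned 31 peaks or 56.6 per Mb (38.4 to 80.3), and 9 of these peaks held the exact CTCF consensus. The kallikrein genes (KLK) had 52.8 per Mb, the spans of CEACAM genes 50.7 and 52.6, the CYP4F genes 42.2 and the leukocyte receptor genes of the LILR family 44.04 (26.9 to 68.0). The spans of olfactory receptor genes (OR) had 28.2 and 36.2, and the SIGLEC genes 34.5. The neighbouring KIR genes, which encode receptors of natural killer cells, held 1 peak in 142.8 kb, or 7.00 per Mb (0.177 to 39.0). Of these chromosome 19 spans, only the PSG span and the longer CEACAM span (38.0 to 66.3) had intervals that left out the mean of 35.9. On chromosome 18, the 10 SERPINB genes (serine protease inhibitors) spanned 15 peaks, or 27.6 per Mb (15.5 to 45.6), and the desmosomal cadherin genes (DSC and DSG) 7, or 12.5 per Mb (5.03 to 25.8).

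The centromere models held a different kind of peak. On chromosome 18 the model spans 5.40 Mb, from 15460900 to 20861206, and held 58 peaks with fold enrichments from 1.67 to 4.80 and a median background of 2.09 floors. None held the exact consensus, and 8 held it with 1 mismatch. The model of chromosome 19, from 24498981 to 27190874, held 1 peak. Without the models the densities were 15.3 and 37.6 peaks per Mb, and the median fold enrichment was 5.80 on chromosome 18 and 5.64 on chromosome 19, so that the order of the medians turned. The effect of multiply mapped reads in these arrays was not tested.

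The arms of a chromosome differed less than the chromosomes did. Outside the centromere models, the short arm of chromosome 18 held 308 peaks over 15.4 Mb and the long arm 14.1 peaks per Mb, and those of chromosome 19 had 39.6 and 36.1.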

How the data were processed

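The peak list of 1 of the 4 libraries, the RAD21 ChIP of untreated wild-type HCT116 cells, was used. The authors trimmed paired reads with Trimmomatic 0.39, aligned them to GRCh38 with Bowtie2 2.5.3, took out duplicates (MarkDuplicates of Picard) and ran MACS2 2.2.9.1 against Input for the peaks at a q-value of 0.05. Which Input served is not given in the sources used here. The deposited list gives each peak's fold enrichment (a ratio), −log10 p-value, −log10 q-value, summit position and a score that was not used. Library depth is not part of it. The fragments and the background under each summit were solved for from the fold enrichment with its p-value, and all numbers on chromosomes 18 and 19 came out whole within 0.05. A depth of about 74600000 ChIP fragments was inferred from the background floor.

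Summits were classed with GENCODE 44 as promoter (at most 1 kb from the start of any transcript), then exon, then intron, and otherwise intergenic, and class lengths were counted base by base outside assembly gaps. Distances that span gaps of 100 kb or more were left out. Centromere models were located by the periodicity of their satellite repeats. Densities have exact Poisson intervals, ratios exact binomial intervals and shares Wilson intervals, all at 95%. Recovery and consensus search were tested on simulated data. Python 3.11.15, numpy 2.4.6, pandas 2.3.3 and scipy 1.17.1 were used.

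The chromosomes, gene lists and families were chosen with earlier results of these data known. The named items were the 3 highest peaks, the widest peak, the longest stretches without a summit, the richest and poorest windows, 20 listed genes and the listed gene families of each chromosome, with values for the listed genes that had the highest promoter peak, most summits or none. The highest promoter peak of the chromosome 19 list is not reported here. Alternatives were stricter thresholds on q-value, fold enrichment and background, other lengths, other promoter and motif limits and other windows.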

Additional observations from a re-analysis of the deposited data

How the results depend on the processing

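The 15 values below were recomputed in 111 combinations with other settings. In 54 the value stayed within the 95% counting interval of the reported one, and in 57 it left it. Chromosome 19 stayed the denser under these settings, with ratios from 2.35 to 2.69, and the ratios of 3.32 and 4.28 at a fold enrichment of at least 20 and 50 are given above. The ratio left its interval at a fold enrichment of at least 10 (2.69) and without 2 Mb on each side of the centromere models (2.60).

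Values are given in the order chromosome 18, then 19. At a fold enrichment of at least 5, the median distance was 63.1 and 28.6 kb, the median fold enrichment 9.96 and 11.2, the promoter share 13.6% and 26.8%, peaks per gene 2.46 and 0.768, genes with a promoter summit 16.9% and 16.2%, and the consensus share 20.8% and 21.9%. At 10 or more these were 121.1 and 51.9 kb, 15.9 and 17.4, 14.2% and 24.6%, 1.22 and 0.433, 7.52% and 7.99%, and 26.5% and 26.6%. The larger share of genes with a promoter summit on chromosome 18 was thus seen with weak peaks included, and at 10 or more the shares lay close together in the other order.

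At a q-value of at most 1e-05, distances were 42.6 and 18.9 kb, median fold enrichment 6.96 and 7.37, peaks per gene 3.66 and 1.13, genes with a promoter summit 37.6% and 29.0%, the consensus share 16.0% and 16.6%, and the promoter share of chromosome 19 31.6%. At 0.001, median fold enrichment was 6.03 and 6.30, peaks per gene 4.13 and 1.30, the distance on chromosome 19 15.8 kb and its genes with a promoter summit 35.9%. With the background below 2 floors, peaks per gene were 4.23 and 1.33 and the distance on chromosome 19 was 15.4 kb.

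With a promoter limit of 2 kb, promoter shares were 23.9% and 47.1%, and 46.3% of the genes of chromosome 19 had a promoter summit. With starts of protein-coding genes only, the promoter shares were 13.1% and 31.8%, and with the class of the whole peak that of chromosome 19 was 39.7%. Outside promoters the median fold enrichment of chromosome 19 was 6.82. With 1 mismatch allowed, the consensus shares were 39.6% and 40.2%. With GC classes, the listed peaks were 89.7% and 93.2% of the computed number. Leaving out the centromere models, added after the data had been seen, kept all values within their intervals but turned the order of the medians of fold enrichment. No paired analysis was possible because 1 library was analysed. The list holds called peaks only, so that sites below the threshold at this depth do not appear, and no value has a replicate.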

Other observations

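The orientation of the CTCF consensus was alike on the chromosomes. Between neighbouring peaks with the exact consensus, 51.9% of the pairs on chromosome 18 (44.1% to 59.6%, 156 pairs) and 53.1% on chromosome 19 (47.2% to 58.9%, 277 pairs) had both motifs on the same strand. Convergent pairs, with the motifs pointing at each other, made up 23.7% and 23.5%, and divergent pairs 24.4% and 23.5%. The median distance between convergent motifs was 306.8 kb on chromosome 18 and 130.6 kb on chromosome 19.

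Near the end of the short arm of chromosome 18, 3 peaks stood on a background found nowhere else on either chromosome. Their summits at 107419, 108170 and 110396 had 593, 2644 and 1160 fragments over 42.0, 343.0 and 142.2 floors, with fold enrichments of 2.39, 1.31 and 1.38. None held the consensus with up to 1 mismatch. The highest background on chromosome 19 was 13.3 floors, at 7450729.

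The centromere model of chromosome 18 held 2209 of the 5832 matches to the consensus with up to 1 mismatch on that chromosome, and 2208 of them lay on the minus strand. The model of chromosome 19 held 25 of 5248. No exact match lay in either model.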
